A study of Mus musculus with 2 samples.

Results

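The 10 genes described here mark the endothelium, the cells that line blood and lymph vessels, and the sinusoids, the wide capillaries of the liver. They are Kdr, Flt1, Flt4, Tek, Tie1, Cdh5, Pecam1, Eng, Stab2 and Lyve1, chosen by name, among 21938 protein-coding genes of the annotation. Each was described by the DNase-seq peaks over its gene body and 50 kb on each side. DNase-seq maps open chromatin: DNase I cuts accessible DNA in nuclei, and the cut ends are sequenced. The nuclei came from liver of embryonic day 11.5 mice of the strain B6NCrl, male and female embryos pooled, with no genetic change or treatment named. The 2 libraries are technical replicates 7 and 1 of biological replicate 1. There is 1 biological sample, so no value has a biological error and no test was made. All coordinates are on mm10.

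Vascular endothelial growth factors signal through the receptor kinases encoded by Kdr, Flt1 and Flt4, and angiopoietins through the one encoded by Tek. The related receptor Tie1 modulates Tek. Cdh5 and Pecam1 encode adhesion proteins of endothelial junctions, and Eng a co-receptor of the BMP and TGF-beta pathway. Stab2 and Lyve1 encode hyaluronan receptors of sinusoidal and lymphatic endothelium. Endothelial enhancers are known for motifs of ETS and GATA factors, often with SOX, forkhead or RBPJ motifs. CTCF, by contrast, binds in most cell types and anchors chromatin loops.

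The peak list of technical replicate 7 held 86036 peaks and that of technical replicate 1 held 42422. Peak strength is the deposited density of cuts, and the rank percentile of a density within its own library is given for reference, since densities of the libraries may not share a scale. All densities were multiples of a smallest step, which measured 0.00401 for technical replicate 7 and 2.52 times that for technical replicate 1. Marker genes of the other cells of the organ had promoter peaks too. Of 10 genes each, 9 hepatoblast, 8 erythroid, 9 stem and progenitor and 2 macrophage genes had one in technical replicate 7, against 4, 6, 9 and 1 in technical replicate 1. Over all protein-coding genes, 65% had one in technical replicate 7 and 59.6% in technical replicate 1. In such bulk tissue, fewer cells with an open site and a less open site in each cell cannot be told apart. Sequencing instruments are named for technical replicate 7 only, so instrument and library cannot be told apart.

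In the stricter peak lists, the promoter peaks of these 10 genes were mostly weak. Of the 12 in technical replicate 7, 7 were listed in technical replicate 7 alone. Peaks so named had no overlapping peak in the stricter list of technical replicate 1. Over all genes, 75.4% of the promoter peaks of technical replicate 7 had one. For every gene but Kdr the strongest site in technical replicate 7 lay away from its promoter. A peak within 1 kb of a transcription start was found for 7 of the 10 genes in technical replicate 7, where 65% of all protein-coding genes had one. In technical replicate 1 it was found for 3 of the 10, against 59.6% of all genes. The 3 genes of technical replicate 1 were Kdr, Flt1 and Pecam1, and each of them had promoter peaks that overlapped between the libraries, as 59.1% of all genes did. No peak was listed in the stricter list of either library at the starts of Cdh5, Stab2 and Lyve1. These counts changed with list length, as given below. In the longer lists, 64.3% of the 14 promoter peaks in technical replicate 7 overlapped one of technical replicate 1. The share over all genes is not given for those lists, so this value cannot be called low or high.

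The sequences below are the open sites on which the account turns, read 5′ to 3′ on the strand of their gene. The first is the Kdr promoter, the strongest promoter site of the 10 genes, given as 300 bp of the peak, chr5:75978365-75978664 on the minus strand. Its capitals mark the 4 stretches that technical replicate 7 lists as footprints, short runs protected from cutting.
Kdr promoter: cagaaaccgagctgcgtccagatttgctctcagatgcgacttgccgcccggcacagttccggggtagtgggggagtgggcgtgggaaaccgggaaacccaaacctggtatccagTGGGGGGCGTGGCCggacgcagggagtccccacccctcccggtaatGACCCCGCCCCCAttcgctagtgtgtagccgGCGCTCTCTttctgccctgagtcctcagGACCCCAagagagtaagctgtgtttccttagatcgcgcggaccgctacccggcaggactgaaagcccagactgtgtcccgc

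The next group holds non-promoter sites with matches to the letters of motifs of ETS factors (AGGAAG or CGGAAG) and of GATA factors (AGATAA or TGATAA), on either strand. In Kdr intron (chr5:75962225-75962524, minus strand) and Flt1 intron (chr5:147657923-147658199, minus strand), capitals mark both motifs. In Tek intron (chr4:94746493-94746792, plus strand) and Cdh5 upstream (chr8:104099398-104099692, plus strand), they mark ETS matches. In Pecam1 intron (chr11:106728443-106728724, minus strand), they mark the match to a TAL1-GATA composite (CTG, 7 or 8 bases, GATAA), which 1 distal peak of the 10 genes held within 100 bp of its midpoint.
Kdr intron: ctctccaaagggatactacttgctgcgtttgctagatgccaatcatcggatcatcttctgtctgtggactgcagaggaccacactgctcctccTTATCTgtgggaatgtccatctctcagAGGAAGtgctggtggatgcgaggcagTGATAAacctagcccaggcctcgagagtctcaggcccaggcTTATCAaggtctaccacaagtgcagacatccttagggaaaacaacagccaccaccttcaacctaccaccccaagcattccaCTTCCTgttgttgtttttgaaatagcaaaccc
Flt1 intron: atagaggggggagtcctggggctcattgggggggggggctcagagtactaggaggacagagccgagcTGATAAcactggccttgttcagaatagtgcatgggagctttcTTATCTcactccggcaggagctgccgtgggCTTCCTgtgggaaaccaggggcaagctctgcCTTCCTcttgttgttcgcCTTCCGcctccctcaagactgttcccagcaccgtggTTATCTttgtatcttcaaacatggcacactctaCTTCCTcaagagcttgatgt
Tek intron: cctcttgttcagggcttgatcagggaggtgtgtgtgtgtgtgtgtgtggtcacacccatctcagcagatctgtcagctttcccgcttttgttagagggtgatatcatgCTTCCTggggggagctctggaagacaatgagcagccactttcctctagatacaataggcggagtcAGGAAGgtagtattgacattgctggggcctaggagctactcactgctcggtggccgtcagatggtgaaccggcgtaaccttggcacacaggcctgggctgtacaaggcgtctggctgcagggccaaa
Cdh5 upstream: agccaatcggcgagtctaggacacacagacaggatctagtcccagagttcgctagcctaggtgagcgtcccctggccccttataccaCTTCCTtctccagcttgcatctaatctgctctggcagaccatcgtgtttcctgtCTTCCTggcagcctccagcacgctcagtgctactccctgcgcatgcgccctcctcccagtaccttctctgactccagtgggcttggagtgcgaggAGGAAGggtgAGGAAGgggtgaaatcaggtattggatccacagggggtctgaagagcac
Pecam1 intron: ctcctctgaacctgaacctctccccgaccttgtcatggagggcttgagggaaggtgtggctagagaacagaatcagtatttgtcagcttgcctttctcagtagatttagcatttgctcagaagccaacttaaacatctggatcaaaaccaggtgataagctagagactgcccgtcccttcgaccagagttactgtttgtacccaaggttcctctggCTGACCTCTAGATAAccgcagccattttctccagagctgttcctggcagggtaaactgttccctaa

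The last pair are the strongest sites around Flt4 and Stab2. Capitals mark the match to the CTCF letters (CC, 3 bases, AG, 2 bases, GGC), which lies in a footprint in both libraries. Flt4 downstream is chr11:49652841-49653051 on the plus strand, and Stab2 upstream is chr10:87024969-87025186 on the minus strand.
Flt4 downstream: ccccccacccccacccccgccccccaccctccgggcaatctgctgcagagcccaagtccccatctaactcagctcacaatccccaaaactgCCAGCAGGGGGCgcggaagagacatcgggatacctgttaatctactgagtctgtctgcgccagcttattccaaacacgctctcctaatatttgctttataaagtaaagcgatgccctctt
Stab2 upstream: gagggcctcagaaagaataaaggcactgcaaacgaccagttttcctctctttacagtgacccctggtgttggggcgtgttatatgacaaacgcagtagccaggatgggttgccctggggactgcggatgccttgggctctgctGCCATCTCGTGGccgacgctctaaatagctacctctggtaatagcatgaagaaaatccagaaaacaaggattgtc

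**Figure D1:**
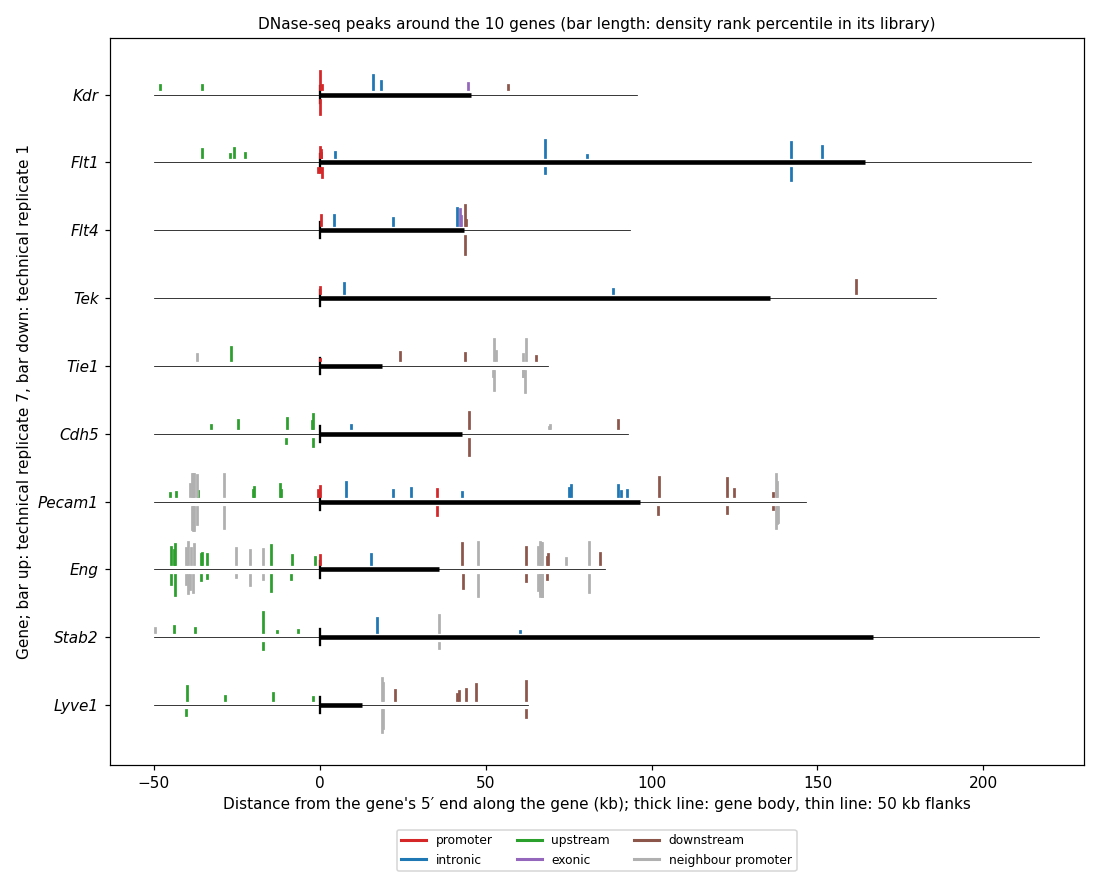
Peaks around the 10 genes by distance from the gene's 5′ end in kb, with bars up for technical replicate 7 and bars down for technical replicate 1, bar length proportional to the density rank percentile in its library and colour giving the class. Most coloured bars point up without a partner below, and the long grey bars around Tie1, Pecam1, Eng and Lyve1 are promoters of neighbouring genes.

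Among the VEGF receptors, Kdr (chr5:75932827-75978458, minus strand), the main signalling receptor for VEGF-A, had the strongest promoter peak. Its density reached 1.34 in technical replicate 7, at rank percentile 79.2, and 1.59 in technical replicate 1, at rank percentile 63.0. Even so, it was modest as promoters go: 27.9% of the genes with a promoter peak had a weaker one in technical replicate 7, and 24.4% in technical replicate 1. The median of the strongest promoter peak over such genes was 2.75 and 2.70 in technical replicates 7 and 1. A second promoter peak of Kdr, 630 bp inside the gene, had a density of 0.389 in technical replicate 7. The promoter hotspot reached 24.8 on the −log10 FDR scale in technical replicate 7 and 6.64 in technical replicate 1.

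Outside its promoter, Kdr had peaks in technical replicate 7 alone. The strongest intronic one lay 16.1 kb inside the gene with a density of 0.813, and its printed sequence holds 2 ETS and 3 GATA matches. A weaker intronic peak 18.4 kb inside had a density of 0.497. Its strongest upstream peak, 35.6 kb away, had a density of 0.405 and a rank percentile of 19.8. The intronic site at 16.1 kb was listed in the longer peak list of technical replicate 1, whereas the others were not.

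Flt1 (chr5:147561604-147726011, minus strand) encodes a high-affinity VEGF-A receptor that acts largely as a decoy. Its promoter held 3 peaks in technical replicate 7, with densities of 0.545, 0.457 and 0.393, all shared with technical replicate 1. Technical replicate 1 listed 3 promoter peaks as well, with densities of 1.12, 0.848 and 0.818. They did not pair off: the peak of 1.12 overlapped both weaker peaks of technical replicate 7, and that of 0.818 overlapped none. The promoter was thus open in both libraries and weak in both, since 9.45% of the genes with a promoter peak had a weaker one in technical replicate 7, and 13.1% in technical replicate 1.

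Flt1 was also the only 1 of the 10 genes with intronic peaks in both libraries. The strongest, 67.95 kb inside the gene, had a density of 1.09 in technical replicate 7 and 0.879 in technical replicate 1. It stood at rank percentile 73.3 in technical replicate 7, above the promoter at 42.2. The printed Flt1 intron sequence is this site, with 4 ETS and 3 GATA matches. The other shared intronic peak, 141.9 kb inside, had a density of 0.849 in technical replicate 7, against 1.36 in technical replicate 1, and holds a CTCF match in a footprint in both libraries. The strongest upstream peak of Flt1, 25.9 kb away, had a density of 0.533 and was listed in technical replicate 7 alone.

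Flt4 (chr11:49609263-49652739, plus strand) encodes the receptor for VEGF-C and VEGF-D of lymphatic and early venous endothelium. Its promoter peak, listed in technical replicate 7 alone, had a density of 0.549 and a midpoint 416 bp inside the annotated gene. The RefSeq start of Flt4 lies 416 bp inside the start of the annotation used, at the midpoint of that peak. The longer list of technical replicate 1 held a promoter peak there too, with a density of 0.838. Its strongest intronic peak, 41.3 kb inside, had a density of 1.10, and 2 exonic peaks next to it had densities of 0.985 and 0.505. All were in technical replicate 7 alone by the stricter lists, and the exonic peak of 0.505 was in the longer list of technical replicate 1. No upstream peak was listed for Flt4.

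The strongest site around Flt4 was the printed downstream one, just past the gene's 3′ end and 43.7 kb from its 5′ end. Technical replicate 7 gave it a density of 1.81 and technical replicate 1 one of 2.46, at rank percentiles 85.4 and 80.0. The ETS letters found in it begin 1 base past the CTCF match, and both matches overlapped footprints in both libraries.

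Around the angiopoietin receptor genes, almost nothing was listed in the stricter list of technical replicate 1. Tek (chr4:94739289-94874976, plus strand) had 4 peaks in technical replicate 7 and 0 in technical replicate 1. Its promoter peak had a density of 0.425. The stronger of its 2 intronic peaks, 7.35 kb inside the gene, had a density of 0.553, with 2 ETS matches in the printed sequence. As background, an intronic enhancer of mouse Tek is widely used to drive transgenes in endothelium, and whether it is this site was not checked. The nearest peak to the Tek start in the stricter and longer lists of technical replicate 1 was 124759 bp away. Earlier peak lists B and C of that library each held 2 promoter peaks of Tek.

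Tie1 (chr4:118471191-118490061, minus strand) had the weakest promoter peak of the 10 genes, with a density of 0.344 in technical replicate 7. Only 1.43% of the genes with a promoter peak had a weaker one in that library. The stricter and longer lists of technical replicate 1 held no promoter peak of Tie1, while its earlier peak lists B and C each held 1. Its strongest site of its own was 26.9 kb upstream, with a density of 0.741 and a GATA match, in technical replicate 7 alone. All 5 peaks of technical replicate 1 in its window lay within 1 kb of starts of other genes, and its 2 neighbours with shared promoter peaks were Elovl1 and Cdc20.

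**Figure D2:**
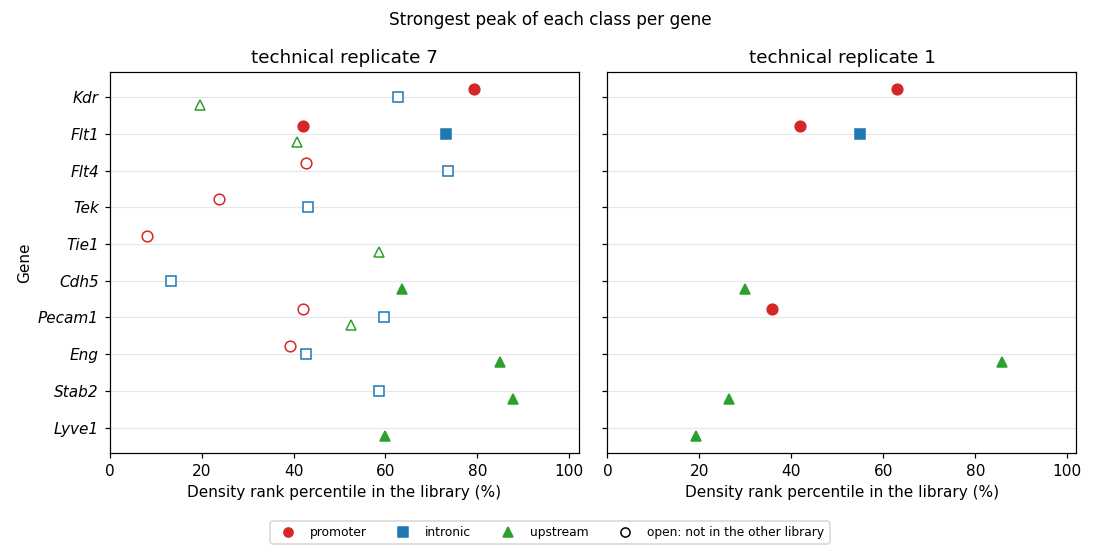
Density rank percentile, in percent of the peaks of the library, of the strongest promoter, intronic and upstream peak of each gene in technical replicates 7 and 1, with open symbols for peaks listed in 1 library alone. In technical replicate 7 every promoter symbol but that of Kdr lies below 43 percent, and in technical replicate 1 no symbol at all appears for Flt4, Tek or Tie1.

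Of the junction genes, Cdh5 (chr8:104101625-104144511, plus strand), which encodes VE-cadherin, had its nearest listed peak 2080 bp upstream of its start in both libraries. Technical replicate 7 gave a density of 0.829 there and technical replicate 1 gave 0.960, and the printed Cdh5 upstream sequence is this site, with 4 ETS matches. The adjacent peak of technical replicate 7, 2.47 kb upstream with a density of 0.461, overlapped the same peak of technical replicate 1. A further shared upstream peak, 9.95 kb away, had a density of 0.569 in technical replicate 7 and 0.808 in technical replicate 1. Its CTCF match lay in a footprint of technical replicate 7. A shared downstream peak, 44.9 kb from the 5′ end, had a density of 0.993 in technical replicate 7 and 1.72 in technical replicate 1.

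At the Cdh5 start itself, the longer lists held a peak of density 0.332 in technical replicate 7 and of 0.717 in technical replicate 1. This start was therefore listed in both libraries once the weaker peaks were taken in. The 1 intronic peak of Cdh5, 9.38 kb inside, had a density of 0.373 in technical replicate 7 alone.

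Pecam1 (chr11:106654217-106750628, minus strand), which encodes CD31, had the most peaks of its own in technical replicate 7, 23, and 4 in technical replicate 1, where Eng had 9 and Flt1 5. At its 5′ end, 2 promoter peaks had densities of 0.545 and 0.445 in technical replicate 7 and no partner in technical replicate 1. Both also lay within 1 kb of a start of the neighbour Milr1, and were counted for Pecam1 because a gene's own start took precedence. The shared promoter peak of Pecam1 lay at an internal start 35.4 kb inside the gene, with a density of 0.461 in technical replicate 7 and 1.03 in technical replicate 1. The count of Pecam1 as a gene with a promoter peak in both libraries therefore rests on a start inside the gene.

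The 9 intronic peaks of Pecam1 in technical replicate 7 had no shared member. The strongest, 7.96 kb inside, had a density of 0.757 and a CTCF match in a footprint. The printed TAL1-GATA site lay 22.04 kb inside, with a density of 0.445 and 0 footprints. The strongest of 7 upstream peaks, 11.99 kb away inside the gene Milr1, had a density of 0.653. Shared downstream peaks lay 102.1, 122.7 and 136.7 kb from the 5′ end, with densities of 1.57, 1.34 and 0.385 in technical replicate 7, against 0.95, 0.899 and 0.737 in technical replicate 1.

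The co-receptor gene Eng (chr2:32646595-32682669, plus strand) was the gene with the most shared peaks, 12 of its 16 own peaks in technical replicate 7. Technical replicate 1 listed 9 own peaks of Eng, all shared, so some of the 12 overlapped the same peak. The promoter of Eng was not among the shared sites: a peak of density 0.521 was listed in technical replicate 7, and neither the stricter nor the longer list of technical replicate 1 held one. The 1 intronic peak, 15.3 kb inside with a density of 0.549, was listed in technical replicate 7 alone, as was an upstream peak 1.59 kb from the start with a density of 0.469. Eng lies in a gene-rich stretch, and 14 further peaks of technical replicate 7 in its window were at starts of its neighbours, 13 of them shared.

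Upstream of Eng, 8 of 9 peaks of technical replicate 7 were shared, overlapping 6 peaks of technical replicate 1. The strongest, 43.6 kb away inside St6galnac6, had a density of 1.76 in technical replicate 7 and 2.98 in technical replicate 1, with a CTCF match in a footprint in both libraries. Peaks 44.9 kb and 43.9 kb away had densities of 1.18 and 0.765 in technical replicate 7, and the one 43.9 kb away overlapped the same peak of technical replicate 1 as the strongest. In the same gene, 3 weaker shared peaks 34.1 to 35.8 kb away had densities of 0.549 to 0.577 in technical replicate 7. Inside Ak1, 14.7 kb upstream of Eng, a shared peak had a density of 1.502 in technical replicate 7 and 1.95 in technical replicate 1, with an ETS match.

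Downstream of Eng, 4 shared peaks of technical replicate 7, with densities of 0.449 to 2.56, overlapped 3 peaks of technical replicate 1. The strongest lay 43.0 kb from the 5′ end inside Fpgs, with a density of 1.45 in technical replicate 1.

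The hyaluronan receptor genes had no promoter peak in any peak list of either library. Stab2 (chr10:86841198-87008025, minus strand) had no hotspot at its start in either library, the only 1 of the 10 genes of which this holds. The 300 bp at its RefSeq start (GRCm38.p6, chr10:87007893-87008192, minus strand), printed here as a promoter with no listed peak, hold 1 ETS match in capitals, where 46.5% of 32851 RefSeq promoter windows of that length hold at least 1.
Stab2 promoter: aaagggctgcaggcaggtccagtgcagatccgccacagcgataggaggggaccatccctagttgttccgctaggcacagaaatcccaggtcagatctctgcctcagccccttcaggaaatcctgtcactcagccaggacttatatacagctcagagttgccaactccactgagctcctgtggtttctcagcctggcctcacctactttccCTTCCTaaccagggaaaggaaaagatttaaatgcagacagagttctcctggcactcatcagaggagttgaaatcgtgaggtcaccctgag

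The strongest site of the Stab2 window was the printed upstream one, 17.1 kb from the start, with a density of 2.11 in technical replicate 7 and 0.919 in technical replicate 1. It stood at rank percentile 87.8 in technical replicate 7 and 26.4 in technical replicate 1. The stronger of its 2 intronic peaks, 17.2 kb inside, had a density of 0.741 and a GATA match, in technical replicate 7 alone. The other 4 upstream peaks had rank percentiles of 5.65 to 24.6.

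Lyve1 (chr7:110850607-110863239, minus strand) had no intronic peak in either library. Its nearest peak, 1988 bp upstream, had a density of 0.373 in technical replicate 7 alone. Its strongest upstream peak, 40.1 kb away inside Mrvi1, was shared, with a density of 0.761 in technical replicate 7, against 0.838 in technical replicate 1. A shared downstream peak with a CTCF match in a footprint, 62.0 kb from the 5′ end, had a density of 1.56 in technical replicate 7 and 0.939 in technical replicate 1. The strongest signal in the Lyve1 window was at the start of its neighbour Rnf141.

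Set against all genes by class, the 10 genes had intronic peaks more widely in technical replicate 7 and promoter peaks of lower rank. An intronic peak was found for 8 of the 10 in technical replicate 7, against 39.5% of all genes, and for 1 of the 10 in technical replicate 1, against 17.8%. The gene bodies had a median length of 44.6 kb over the 10 genes and 17.4 kb over all genes, and longer genes hold more intronic sequence. An upstream peak was found for 8 of the 10 in technical replicate 7, against 65.8% of all genes, and for 4 of the 10 in technical replicate 1, against 36.1%. Upstream peaks of 4 genes (Cdh5, Eng, Stab2 and Lyve1) overlapped between the libraries, against 35.9% of all genes. The number of own peaks per 100 kb of window had a median of 5.53 over the 10 genes and 4.23 over all genes in technical replicate 7. In technical replicate 1 these medians were 1.24 and 1.74.

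The 12 promoter peaks of the 10 genes in technical replicate 7 had a median rank percentile of 29.98, where those of all genes had 69.0. For the 25 intronic peaks the medians were 35.96 and 41.2, and for the 37 upstream peaks 31.6 and 51.8. Of these, 5 promoter peaks were shared with technical replicate 1 (41.7%, exact Clopper-Pearson 95% interval 15.2 to 72.3, counting error only), against 75.4% of promoter peaks of all genes. Only 2 intronic peaks were shared (8%, interval 0.984 to 26.0), against 27.2% for all genes. With 13 shared upstream peaks (35.1%, interval 20.2 to 52.5), that class stood near the 37.0% of all genes, and 8 of the 13 were upstream of Eng. By contrast, the 33 peaks of technical replicate 7 at starts of neighbouring genes had a median rank percentile of 74.3, and 26 of them were shared (78.8%).

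**Figure D3:**
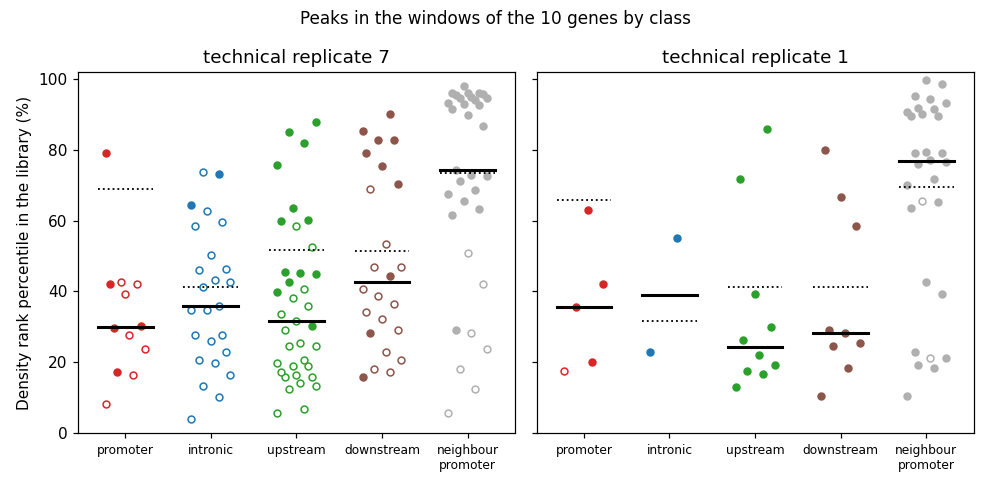
Density rank percentile, in percent, of every peak in the windows of the 10 genes by class in technical replicates 7 and 1, with filled points for peaks overlapping between the libraries, a solid line at the median of the 10 genes and a dotted line at the median of all protein-coding genes. In technical replicate 7 the solid promoter line lies at 29.98 and the dotted one at 69.0, while both neighbour promoter lines lie above 73.

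List length entered these counts. In the longer, more permissive lists 8 of the 10 genes had a promoter peak in technical replicate 7, against 67.1% of all genes, and 5 of the 10 in technical replicate 1, against 62%. Earlier peak lists B and C of technical replicate 1, with 99983 and 106208 peaks, gave 7 of the 10 each. Its earlier peak list A, with 62288 peaks, gave 3. The share over all genes is not given for the earlier lists. The stricter list of technical replicate 7 was cut to its 42422 strongest peaks, the length of the other list, which left densities of at least 0.633. Then 1 of the 10 genes, Kdr, kept a promoter peak, where 57% of all genes had one. Base composition also differed. The ratio of observed to expected CpG in 1000 bp around the 5′ end was 0.656 for Kdr, 0.813 for Flt1 and 0.807 for Flt4, and 0.186 to 0.396 for the other 7, beside a median of 0.553 over all genes. Among genes with a ratio under 0.6, 4 of the 7 had a promoter peak in technical replicate 7, against 38.8% of all such genes, and 1 of the 7 in technical replicate 1, against 31.2%. The 3 genes with a ratio of at least 0.6 all had one in technical replicate 7, against 95.9%, and 2 of the 3 in technical replicate 1, against 93%. The part of base composition in the promoter counts beyond these values was not tested.

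Hotspots, the broader regions of raised cutting, gave a wider count. A hotspot overlapped the 1 kb around a start for 9 of the 10 genes in technical replicate 7, against 70.2% of all genes, and for 7 of the 10 in technical replicate 1, against 65%. At a −log10 FDR of at least 3, it did so for 7 of the 10 in technical replicate 7, against 65.9%, and for 4 of the 10 in technical replicate 1, against 60.5%. Cdh5 was the gene that entered in technical replicate 1, with a promoter hotspot of 3.12, while that library gave 2.78 for Flt4, 1.78 for Tek and 1.74 for Eng. For Flt4, Tek and Eng, weak signal within 1 kb of a start was therefore listed in technical replicate 1 below 3, the lowest value under its stricter peaks.

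Other endothelial genes differed by group in how many had a promoter peak. Of all protein-coding genes, 65% had one in technical replicate 7 and 59.6% in technical replicate 1. The groups were not matched for CpG ratio, and its part in these counts was not tested. Of 17 endothelial transcription factors, 16 had a promoter peak in each library and all 16 overlapped, with Hey2 at 4.38, Ets1 at 4.11 and Hey1 at 3.39 strongest in technical replicate 7. Hey1 and Hey2 are Notch targets, and Ets1 is a founding member of the ETS family. Etv2, the ETS factor that starts endothelial fate, was the 1 without. Gata2 and Lyl1 of this list are also among the stem and progenitor markers counted above. In this bulk tissue, the promoter peaks of the list cannot be credited to endothelial cells alone. Of 19 ligands, co-receptors and signal partners of the VEGF and angiopoietin pathways, 16 had one in technical replicate 7 and 14 in technical replicate 1. Plcg1, a phospholipase activated by Kdr, had a density of 3.55, the ligand gene Vegfa 3.54 and the ephrin gene Efnb2 3.12 in technical replicate 7. The ligand genes Vegfd and Angpt2 and the BMP receptor gene Acvrl1 had none.

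Of 15 other surface and junction genes, 11 had a promoter peak in technical replicate 7 (73.3%) and 6 in technical replicate 1 (40%). The strongest in technical replicate 7 were S1pr1, a sphingolipid receptor, at 2.48, the secreted factor Egfl7 at 1.41 and the adrenomedullin receptor gene Calcrl at 1.34. Of 15 sinusoid and lymphatic genes, 9 had a promoter peak in technical replicate 7 (60%) and 6 in technical replicate 1 (40%). In technical replicate 7 the shares of these groups lay near the 65% of all genes. Among the sinusoid and lymphatic genes, the transcription factor gene Maf had a density of 1.89 in technical replicate 7. The cytokine receptor gene Lifr had 1.82 and the transcription factor gene Gata4 1.78, and these genes are known from other cell types as well. Under the list of technical replicate 7 cut to 42422 peaks, 11 of the 17 transcription factors and 13 of the 19 pathway partners had a promoter peak. So did 8 of the 15 surface and junction genes and 7 of the 15 sinusoid and lymphatic genes, beside 57% of all genes.

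**Figure D4:**
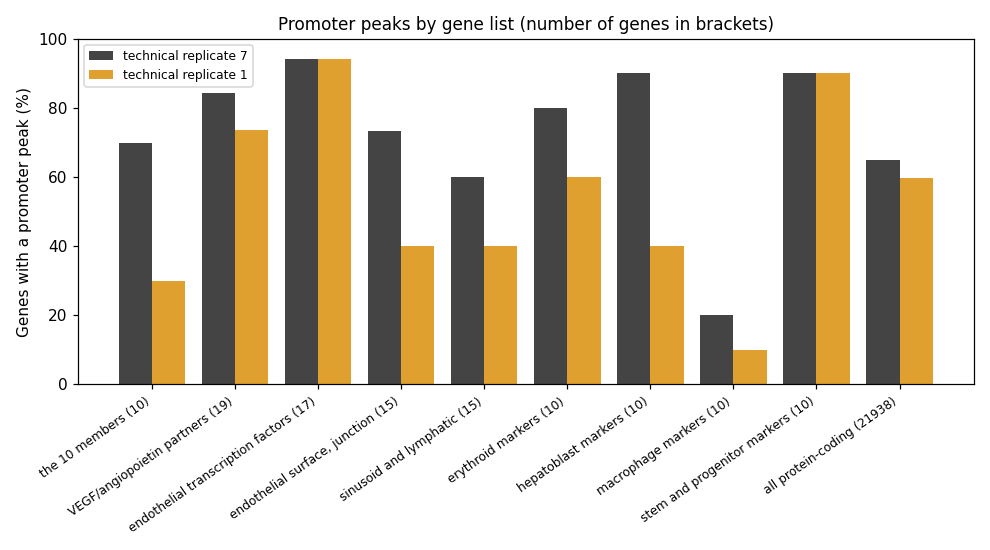
Percent of genes with a promoter peak in technical replicates 7 and 1 for the 10 genes, 4 further endothelial lists, 4 marker lists of other cell types and all protein-coding genes. For the 10 genes the bars stand at 70 and 30 percent, and for the endothelial transcription factors both stand at 94.1 percent.

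Sequence motifs were counted within 100 bp of the midpoint of each distal peak, on both strands, distal meaning outside the promoter and neighbour promoter classes. In technical replicate 7, ETS letters were in 34 of 89 distal peaks of the 10 genes (38.2%, interval 28.1 to 49.1), against 33.6% of 52996 distal peaks. For GATA the shares were 31.5% and 26.0%, for the SOX letters AACAAT 12.4% and 7.11%, and for the forkhead letters TAAACA 14.6% and 12.3%. The RBPJ letters TGGGAA gave 19.1% and 19.0%, the KLF letters CACACCC 6.74% and 6.25%, and the NFE2 letters TGAGTCA or TGACTCA 7.87% and 5.67%. The TAL1-GATA composite gave 1.12% and 2.92%. CTCF letters were in 16 of the 89 (18.0%, interval 10.6 to 27.5), against 24.4% of all. For all 9 motifs the share of all distal peaks lay inside the counting interval of the 10 genes.

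The distal sites found in both libraries differed in motif make-up from those in technical replicate 7 alone. Of the 16 distal peaks with CTCF letters, 11 were shared (68.8%), and of the 73 without, 14 were (19.2%). Over all distal peaks these shares were 40.6% and 26.3%. The SOX letters ran the other way: 0 of 11 peaks with them were shared, against 25 of 78 without (32.1%), and over all distal peaks the shares were 21.9% and 30.4%. Of the 28 peaks with GATA letters, 4 were shared (14.3%), against 21 of 61 without (34.4%), beside 20% and 33.3% over all distal peaks. ETS letters made little difference, with 11 of 34 shared (32.4%) and 14 of 55 without them (25.5%), beside 29.6% and 29.9% over all.

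**Figure D5:**
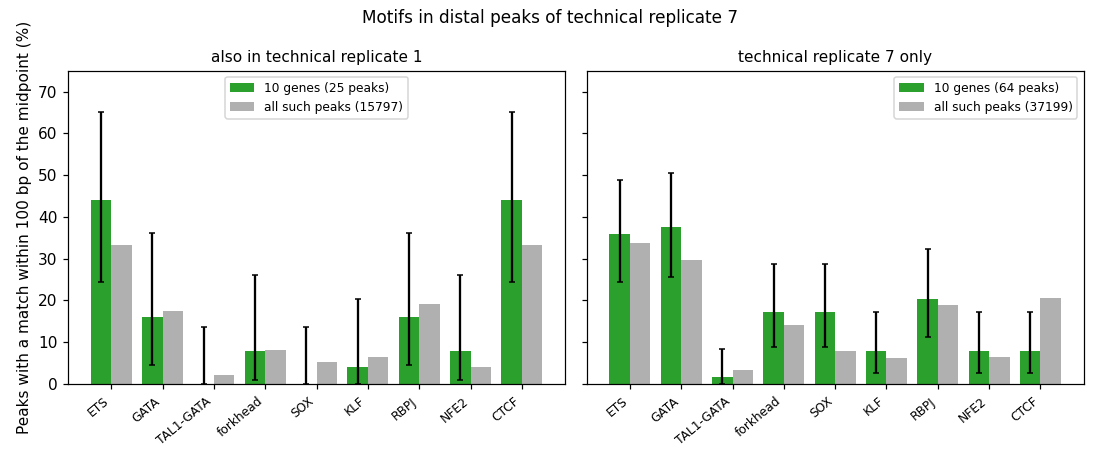
Percent of distal peaks of technical replicate 7 with a motif match within 100 bp of the midpoint, for peaks also listed in technical replicate 1 and for peaks listed in technical replicate 7 alone, in the windows of the 10 genes (bars with exact 95% counting intervals) and over all distal peaks. CTCF matches were in 44% of the shared peaks of the 10 genes and in 7.81% of the others.

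A larger share of CTCF matches than of ETS or GATA matches overlapped a footprint. These shares are not of like measures, since the CTCF letters span more bases and a longer match can overlap a footprint more easily. Whether any factor was bound was not tested. In technical replicate 7, 13 of 17 CTCF matches in the distal peaks of the 10 genes overlapped a footprint (76.5%), against 63.3% of such matches in all distal peaks. For ETS letters it was 2 of 78 (2.56%), against 2.95%, and for GATA letters 2 of 47 (4.26%), against 4.08%. The footprinted ETS letters were at the Flt4 downstream site, beside its CTCF match, and 44.9 kb upstream of Eng. No match to the SOX, forkhead, RBPJ, KLF, NFE2 or TAL1-GATA letters in these peaks overlapped a footprint in technical replicate 7. In technical replicate 1, 9 of 11 CTCF matches did (81.8%), against 77.01% in all distal peaks, and 4 of 27 ETS matches (14.8%), against 10.4%. That library had 1 of 9 RBPJ matches in a footprint (11.1%), against 11.1%, and 1 of 4 NFE2 matches (25%), against 11.2%. Of its 8 GATA matches 0 overlapped one, against 11.1% in all distal peaks.

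The 13 distal peaks with a footprinted CTCF match lay around 8 of the 10 genes, all but Kdr and Tie1, and 10 of them were shared. Their median rank percentile in technical replicate 7 was 75.4, against 32.9 for the other 76 distal peaks, 15 of which were shared. A footprint is called from the cuts in a peak, so this split is not independent of density. The same split was not made over all distal peaks, so the difference is not shown to be particular to the 10 genes. Peaks with a footprinted CTCF match included the strongest sites around Flt4 and Stab2. The shared sites 62.0 kb from the 5′ end of Lyve1 and 141.9 kb inside Flt1 were also among them. At the sites with several ETS or GATA matches and no CTCF match, the printed sequences of Kdr intron and Pecam1 intron held 0 footprints of technical replicate 7, and those of Flt1 intron, Tek intron and Cdh5 upstream 1 each, none of them on an ETS or GATA match. In technical replicate 1, Kdr intron held 4 footprints, with a GATA match in a footprint. Flt1 intron and Tek intron held 2 each there, Cdh5 upstream 1 and Pecam1 intron 0, with no ETS or GATA match in a footprint. The longer footprint list of technical replicate 7 placed 5 footprints in Kdr intron, 4 in Flt1 intron, 5 in Tek intron, 4 in Cdh5 upstream and 3 in Pecam1 intron.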

How the data were processed

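Both libraries came from 1 biosample. Per the labels, coordinates are on mm10. The sources used here do not give the aligner or the callers. The authors deposited, for each library, 2 peak lists with a signal (the highest cut density), hotspots with a −log10 FDR and footprints. Footprints of technical replicate 1 carry a constant deposited value of 0.01, taken here for a p-value or FDR limit. Hotspots of an earlier processing of that library carry a deposited score. Shorter peak lists are subsets of the longer ones, and the lowest −log10 value of hotspots under their peaks is 3, against 2 for the longer ones. The shorter lists were used unless named otherwise.

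Peaks were classed by midpoint with the GENCODE vM21 basic annotation: promoter (within 1000 bp of a start of the gene), neighbour promoter (within 1000 bp of a start of another gene), exonic, intronic, upstream or downstream (to 50 kb). Shared means an overlap of at least 1 bp. Every share over all genes used the same rules. Sequence came from GRCm38, and 7 of the 10 genes matched the RefSeq promoter table. Classes, overlaps and motif matches were tested on simulated data. Footprint lists come from different processings and were not compared between libraries. Depth per library is unknown. The genes named were all 10 with their promoter, strongest intronic, strongest upstream and shared peaks, and of each further list the 3 with the strongest promoter peak and those lacking one where at most 3 do, except 1 peak that is not reported here. Members, lists and motifs were chosen with earlier results of these data known, and the CpG limit of 0.6 and the counts by motif and sharing after the values were seen. Python 3.11.15, NumPy 2.4.6, pandas 2.3.3 and SciPy 1.17.1 were used.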

Additional observations from a re-analysis of the deposited data

How the results depend on the processing

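Of 171 alternative values of 41 counts, shares and medians, 122 stayed within 1.5 times the count or within the counting interval and 49 did not. With the longer peak lists, 5 genes had a promoter peak in technical replicate 1 and 5 in both libraries, with 9 promoter peaks in technical replicate 1, and the median promoter rank percentile of technical replicate 7 was 43.5. Intronic peaks were then found for 3 genes in technical replicate 1 and 3 in both libraries, with 6 peaks in technical replicate 1. With the stronger 50% of each list, 1 gene had a promoter peak in technical replicate 7, in technical replicate 1 and in both, with 1 promoter peak in each library and 100% shared. In that setting 5 genes had 7 intronic peaks in technical replicate 7, with 1 intronic peak in technical replicate 1. Upstream peaks numbered 9 in technical replicate 7 and 2 in technical replicate 1, with 1 gene in technical replicate 1 and 1 in both. With technical replicate 7 cut to the length of the other list, 1 gene had a promoter peak there and 1 in both, from 1 peak (100% shared), 5 genes had 6 intronic peaks (33.3% shared), and 9 upstream peaks remained (77.8% shared). With a promoter window of 2500 bp, 5 upstream peaks were left in technical replicate 1. Flanks of 20 kb gave 5 genes with 14 upstream peaks in technical replicate 7 and 5 peaks in technical replicate 1, and flanks of 100 kb gave 62 and 22 peaks. Ranked by smoothed height, the medians of technical replicate 1 were 22.2 for intronic and 11.7 for upstream peaks. The earlier peak lists B and C of technical replicate 1 gave 7 and 7 genes with a promoter peak, with no share over all genes given for those lists. In the hotspots of technical replicate 1, 4 genes had a promoter hotspot of −log10 at least 3. The longer footprint list of technical replicate 7 gave 23 promoter, 82 intronic and 84 upstream footprints. Searched within 200 bp of the midpoint, distal peaks held ETS letters at 56.2%, forkhead at 25.8% and KLF at 16.9%. Leaving out 1 library gave 3 to 7 genes with a promoter peak, 1 to 8 with an intronic one and 4 to 8 with an upstream one for the count over both libraries. Apart from fewer or more peaks entering, the cause of these changes was not tested. No paired analysis was possible because the series holds 1 group. The main limit is the 1 biological sample: the 2 libraries show technical spread only. Depth in cuts is unknown. A site missing from the stricter list of technical replicate 1 was not listed at that limit, rather than shown to be closed. Some such sites, the promoters of Flt4 and Tek among them, were listed in earlier peak lists B and C of the same library.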
